A study of Mus musculus with 2 samples.

Results

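Notch receptors and their ligands comprised 9 mouse genes, namely the 4 receptors Notch1, Notch2, Notch3 and Notch4, the 3 Delta-like ligands Dll1, Dll3 and Dll4, and the Jagged ligands Jag1 and Jag2. They were taken by name, out of 21883 protein-coding genes, and a gene was called marked when the deposited annotation joined a peak of histone H3 trimethylated at lysine 27 (H3K27me3) to its symbol, which required a peak within 5 kb. The cells were wild-type primary chondrocytes from the rib cartilage of newborn CD1 mice, untreated and cultured overnight. The data were 1 library of DNA precipitated with an H3K27me3 antibody (ChIP, 17237574 tags after filtering) and 1 library of input DNA from the same kind of cells (17004082 tags), so no value below had a replicate and no test of a difference was possible. The libraries were grouped by their titles, which their antibody tags contradict. How many animals were pooled was not given in the sources used here. Of 9 chondrocyte marker genes such as Col2a1, Acan and Sox9, 0 had a peak. Of the markers of other cells, 1 of 6 endothelial, 3 of 4 haematopoietic and 3 of 4 skeletal muscle genes had one, against 20.7% of all protein-coding genes. The start itself lay under a peak in 0 of the 9 chondrocyte markers and in 1 of 6 endothelial, 1 of 4 haematopoietic and 2 of 4 muscle genes, against 4.56% of protein-coding genes. These lists are short, and whether the titles or the tags name the precipitated library was not tested. A peak list holds no expression values, so the cell type itself was not measured.

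H3K27me3 is deposited by Polycomb repressive complex 2 (PRC2) and is found over developmental genes that are kept silent. Notch signalling runs between touching cells. A Delta-like or Jagged ligand on one cell binds a Notch receptor on the next, the receptor is cleaved, and its intracellular domain joins Rbpj in the nucleus to switch on genes of the Hes and Hey families. In the growth plate the pathway is known to restrain early chondrocyte differentiation and to govern the passage to hypertrophy, and in the embryo Dll1, Dll3 and the cyclic Hes genes set the segments from which the ribs and vertebrae arise.

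The starts of the Delta-like genes lay under peaks and those of the receptors and Jagged genes did not. The promoter sequences of the 3 Delta-like genes are shown first because a peak covered each of them entirely, and those of Notch2 and Jag2 follow because they were the richest in CpG dinucleotides among the members and lay under no peak. Each runs 5′ to 3′ from 250 bases before to 50 bases after the annotated start, from RefSeq on GRCm38.p6, with every CpG in capitals.
Dll1 (chr17:15376883-15377182, minus strand): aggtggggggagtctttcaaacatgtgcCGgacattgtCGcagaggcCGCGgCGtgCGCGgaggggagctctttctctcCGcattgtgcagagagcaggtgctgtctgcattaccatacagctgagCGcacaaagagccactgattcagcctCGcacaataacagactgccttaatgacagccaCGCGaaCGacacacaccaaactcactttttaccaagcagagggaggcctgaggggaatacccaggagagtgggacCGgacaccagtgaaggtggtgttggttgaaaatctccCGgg
Dll3 (chr7:28301736-28302035, minus strand): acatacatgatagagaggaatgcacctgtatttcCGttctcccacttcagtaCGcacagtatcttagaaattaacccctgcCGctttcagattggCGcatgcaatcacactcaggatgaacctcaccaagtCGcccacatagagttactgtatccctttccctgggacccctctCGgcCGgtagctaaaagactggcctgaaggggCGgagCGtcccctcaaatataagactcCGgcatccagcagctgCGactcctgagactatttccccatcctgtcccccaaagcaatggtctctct
Dll4 (chr2:119325534-119325833, plus strand): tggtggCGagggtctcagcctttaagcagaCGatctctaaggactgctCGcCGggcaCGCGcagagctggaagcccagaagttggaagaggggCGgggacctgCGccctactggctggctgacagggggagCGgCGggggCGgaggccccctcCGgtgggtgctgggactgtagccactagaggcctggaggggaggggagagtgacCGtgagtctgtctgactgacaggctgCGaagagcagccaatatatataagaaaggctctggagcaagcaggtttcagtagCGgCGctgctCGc
Notch2 (chr3:98013288-98013587, plus strand): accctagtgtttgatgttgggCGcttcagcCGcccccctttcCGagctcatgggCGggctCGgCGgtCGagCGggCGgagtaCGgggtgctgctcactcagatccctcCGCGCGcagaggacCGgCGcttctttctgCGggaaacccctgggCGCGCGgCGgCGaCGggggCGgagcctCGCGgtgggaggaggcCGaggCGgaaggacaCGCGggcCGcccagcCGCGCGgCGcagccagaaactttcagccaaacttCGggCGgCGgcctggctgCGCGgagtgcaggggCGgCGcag
Jag2 (chr12:112929446-112929745, minus strand): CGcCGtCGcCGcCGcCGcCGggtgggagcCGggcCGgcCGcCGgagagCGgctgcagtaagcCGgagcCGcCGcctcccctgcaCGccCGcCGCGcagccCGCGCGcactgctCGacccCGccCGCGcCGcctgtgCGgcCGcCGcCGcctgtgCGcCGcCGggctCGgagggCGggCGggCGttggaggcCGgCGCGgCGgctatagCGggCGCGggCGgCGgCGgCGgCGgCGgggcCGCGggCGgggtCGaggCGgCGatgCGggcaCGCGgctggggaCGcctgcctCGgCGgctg

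Of the 9 genes, 5 were marked, against 20.7% of all protein-coding genes and 20.8% of those within the range of gene lengths of the members (8.23 to 137 kb). The marked genes were 1 of 4 receptors (Notch3) and 4 of 5 ligands (Dll1, Dll3, Dll4 and Jag2). Together they held 13 peaks with a summed length of 58.7 kb. The gene start itself was covered in 3 of the 9 genes, against 4.56% of protein-coding genes, and these were the 3 Delta-like ligands. A peak within 1 kb of the start added Jag2 and made 4 of 9 (8.88% of protein-coding genes), although measured from the start of the Jag2 promoter window, 317 bp further inside the gene, this peak lay 1224 bp away and the count stayed at 3 of 9. A peak over the gene itself was found in 4 of 9 (15.3%), where Notch3 took the place of Jag2. Among the protein-coding genes that had a peak at all, the start was covered in 21.6%. Since the members were chosen with results of these data known, these shares are descriptions.

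**Figure D1:**
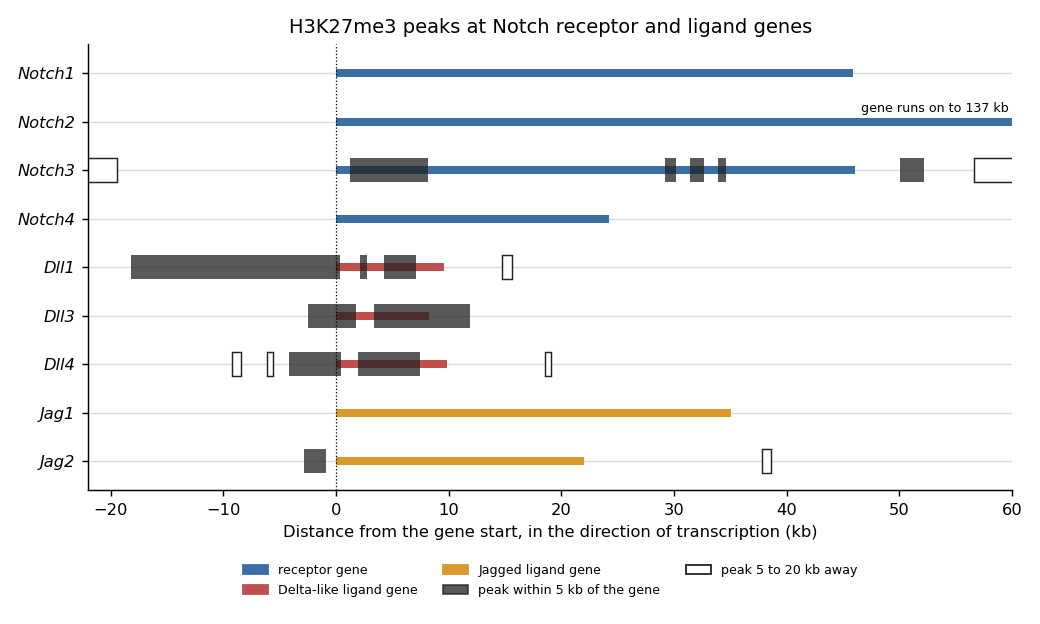
Position of every peak at the 9 genes, as distance in kb from the gene start in the direction of transcription. Coloured bars are genes, dark boxes are peaks within 5 kb of the gene and open boxes are peaks 5 to 20 kb away; some run past the plotted range. Dark boxes cross the start in Dll1, Dll3 and Dll4, and no box lies on Notch1, Notch2, Notch4 or Jag1.

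Dll1, the ligand that acts in the presomitic mesoderm and in many progenitor cells, had the largest summed peak length within the 5 kb reach. With a reach of 20 kb this order turned, with 31.4 kb at Notch3 and 22.9 kb at Dll1. It lies on chromosome 17 (15367354 to 15376932, minus strand) and had 3 peaks with a summed length of 22.1 kb, which ranked 336 among the marked protein-coding genes. The first was 18.6 kb wide and reached from 18.2 kb before the start to 363 bp after it, with a pileup (the ChIP fragments stacked over a base, averaged along the peak) of 12.75 and a fold enrichment over input of 3.56. Only 0.364 kb of this peak lay in the gene, so the mark at Dll1 was chiefly an upstream block. The deposited annotation also joined this block to Fam120b, whose record began 1087 bp from it, and to an unnamed record, and the peak cannot be divided between these genes. A peak of 629 bp (pileup 10.15) lay 2.14 to 2.77 kb after the start, and a peak of 2.83 kb (pileup 11.76) lay 4.27 to 7.11 kb after it. The peaks were parted by gaps of 1780 and 1500 bp. A further peak of 856 bp, with a pileup of 11.85, stood 5155 bp beyond the 3′ end and thus just outside the 5 kb reach.

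Dll3, a divergent ligand that does not activate Notch on neighbouring cells and is needed for vertebral segmentation, was covered over most of its length. It lies on chromosome 7 (28293555 to 28301785, minus strand), and its 2 peaks took up 80.0% of the gene, a larger share than in 98.6% of protein-coding genes. The peak over the start ran from 2.52 kb before it to 1.75 kb after it and was weak, with a pileup of 10.29, an enrichment of 3.04-fold and a q-value (averaged along the peak) of 0.0703. The stronger peak, of 8495 bp, covered the 3′ end with a pileup of 12.33 and a q-value of 0.0127. It continued past the gene and overlapped the next gene, Selenov (28284652 to 28291186), by 1293 bp. The annotation joined it there to a record named BC089491 (28284653 to 28291186), which has the position of Selenov, and it joined the peak over the start to Timm50. Dll3 was therefore the only Delta-like gene whose start was no longer covered when peaks with a q-value above 0.05 were set aside.

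Dll4, the ligand known from sprouting endothelium, had the highest peaks of the family. It lies on chromosome 2 (119325784 to 119335666, plus strand). The peak over its start ran from 4.15 kb before it to 447 bp after it, with a pileup of 13.81, an enrichment of 3.80-fold and a q-value of 0.00215. Of all 19359 peaks, 97.9% had a lower pileup and 98.8% a lower fold enrichment. The second peak, of 5.54 kb, lay inside the gene from 1.91 to 7.44 kb after the start, with a pileup of 13.18 but a fold enrichment of only 3.33, and 60.5% of the gene was under peaks. The upstream peak also covered 4564 bp of Gm14207, a long non-coding RNA gene on the opposite strand, and 691 bp of Gm52558, another long non-coding RNA gene, and ChIP reads carry no strand that could separate the 3 genes. Smaller peaks continued to either side, at 5.61 and 8.45 kb upstream and 8.67 kb downstream, with pileups of 10.71, 10.43 and 12.57.

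The Jagged genes differed from the Delta-like genes in having no peak over the gene. Jag2, which acts in limb and palate, lies on chromosome 12 (112907803 to 112929812, minus strand) and had 1 peak of 1.93 kb, whose nearer edge stood 907 bp before the start, with a pileup of 11.10, an enrichment of 3.29-fold and a q-value of 0.0271. The annotation joined the same peak to the neighbouring Nudt14. Jag1, on chromosome 2 (137081451 to 137116520, minus strand), had no peak within 5 kb. Its nearest peak, of 1.86 kb, lay 75.4 kb upstream (pileup 11.13), and the nearest on the other side lay 368 kb away.

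Among the receptors, Notch3 alone was marked. Notch3, best known from vascular smooth muscle, lies on chromosome 17 (32120820 to 32166896, minus strand) and had 5 peaks with a summed length of 11.9 kb. The widest, of 6.90 kb, began 1242 bp after the start and ended 8.14 kb after it, with a pileup of 12.1, an enrichment of 3.45-fold and a q-value of 0.0116. The start was thus left free, unlike in the Delta-like genes. A group of 3 narrow peaks followed between 29.2 and 34.6 kb after the start, of 908, 1219 and 709 bp, with pileups of 10.78, 10.34 and 10.33. The last 2 of these had q-values of 0.0637 and 0.0622. The fifth peak, of 2.14 kb with a pileup of 11.42, stood 3938 bp beyond the 3′ end. This peak and the 3 narrow ones were also joined to an unnamed record on the opposite strand. In the RefSeq gene table the whole of the peak beyond the 3′ end (2136 bp) lay in Gm38585, a long non-coding RNA gene on that strand.

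Notch1 (chromosome 2, 26457902 to 26503822, minus strand) and Notch2 (chromosome 3, 98013538 to 98150367, plus strand), the broadly expressed receptors, lay far from any peak. The nearest stood 156 kb upstream of Notch1, at Lcn4, and 120 kb upstream of Notch2, at Pde4dip. On the other side the nearest stood 252 kb from Notch1, a peak of 16.6 kb at Lhx3 and Qsox2, and 279 kb from Notch2. Neither gene had a marked base within 100 kb of its start, which held for 47.2% of protein-coding genes, so the absence is common. Notch4, the endothelial receptor (chromosome 17, 34564286 to 34588543, plus strand), was unmarked in a marked neighbourhood. Its nearest peaks, of 482 and 607 bp, lay 23.3 kb upstream and 41.0 kb downstream with pileups of 10.67 and 9.93, and 17.7 kb within 100 kb of its start lay under peaks, more than at 88.5% of protein-coding genes. The lowest pileup called anywhere was 9.86, and a mark below the threshold of the peak caller at these 3 receptors or at Jag1 would not be listed.

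Around the marked genes the mark extended beyond the genes themselves. Within 100 kb of the start, peaks covered 42.2 kb at Notch3, 34.5 kb at Dll4, 31.8 kb at Dll1, 12.8 kb at Dll3 and 5.43 kb at Jag2, beside a median of 0.614 kb over protein-coding genes. Among the unmarked members the value was 17.7 kb at Notch4, above those of Dll3 and Jag2, 3.44 kb at Jag1 and 0 at Notch1 and Notch2, so marked and unmarked members overlapped. A peak of 16.6 kb that began 10.6 kb past the 3′ end of Notch3 contributed to the first value. At Dll3, by contrast, the 2 joined peaks were the only ones within 100 kb.

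The comparison of both sides of the pathway asked whether the mark differed between receptors and ligands. The 5 receptor peaks, all at Notch3, summed to 11.9 kb, and the 8 ligand peaks summed to 46.9 kb, of which 45.0 kb belonged to the Delta-like genes. Inside the genes the difference was smaller in kb (9.73 against 16.4 kb), but the receptor genes are longer, and peaks covered 3.85% of 253 kb of receptor genes and 19.3% of 84.8 kb of ligand genes. Within the ligands the share was 59.2% in the Delta-like genes and 0% in the Jagged genes. The largest single contribution came from the upstream block of Dll1. Without it the ligand peaks summed to 28.3 kb. With a reach of 20 kb the sums were 31.4 kb for the receptors and 50.3 kb for the ligands. By share of gene length the contrast is thus 1 marked receptor (Notch3, 21.1%) set against 3 Delta-like genes with larger shares. In summed length Notch3 (11.9 kb) stood between Dll3 (12.8 kb) and Dll4 (10.1 kb). The genes are not replicates of a class.

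**Figure D2:**
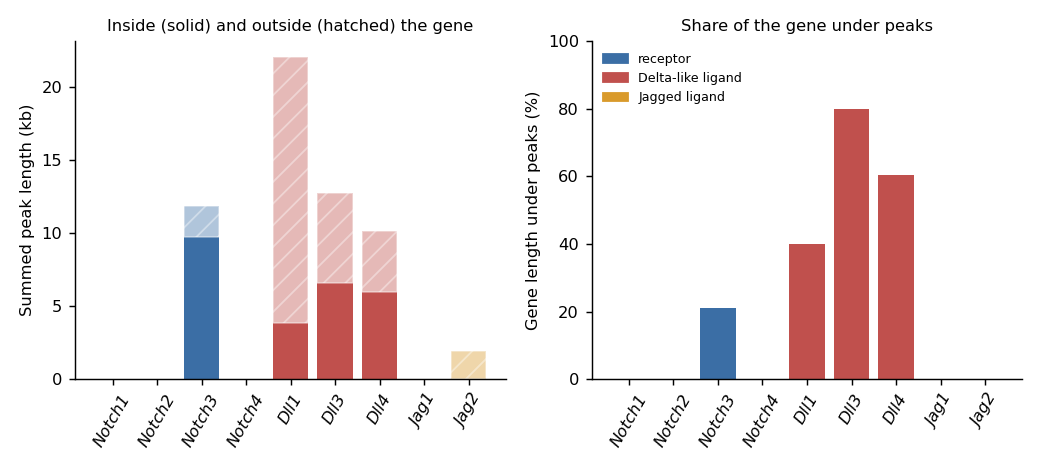
Summed peak length per gene in kb, split into the part inside the gene (solid) and outside it (hatched), and the percentage of each gene under peaks. Dll1 has the tallest bar with most of it hatched, while Dll3 has the largest share of its length covered, 80.0%.

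The positions differed as well. Of the 8 ligand peaks, 3 covered a start, 1 covered a 3′ end, 3 lay inside and 1 lay upstream, whereas 4 of the 5 receptor peaks lay inside the gene and 1 lay downstream. Within 20 kb before the start, peaks covered 18.2 kb at Dll1, 5.43 kb at Dll4, 2.52 kb at Dll3 and 1.93 kb at Jag2. At Notch3 this value was 0.557 kb, and at the other receptors and Jag1 it was 0. Within 20 kb after the start the order was Dll3 (10.2 kb), Notch3 (6.90 kb), Dll4 (6.48 kb) and Dll1 (4.68 kb), so Notch3 ranked among the Delta-like genes downstream of the start but not upstream of it.

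Pileup differed little in fragments, but its scale is narrow. Weighted by peak width, the mean pileup was 11.6 at the receptor peaks and 12.4 at the ligand peaks. The unweighted medians, 10.78 and 12.045, lay on either side of the median over all peaks, 11.04. A pileup of 10.78 was higher than that of 39.6% of all peaks, and one of 12.1 higher than that of 81.8%. The range was 10.33 to 12.1 in receptor peaks and 10.15 to 13.81 in ligand peaks, so the 2 sets overlapped. By gene, the weighted mean was highest at Dll4 (13.5), followed by Dll1 (12.5), Dll3 (11.6), Notch3 (11.6) and Jag2 (11.1). Both peaks of Dll4 were above all peaks of the other members. The weighted fold enrichment ran from 3.54 at Dll4 and 3.53 at Dll1 to 3.33 at Notch3, 3.29 at Jag2 and 3.28 at Dll3. The widest peak was also the highest in Notch3, Dll1 and Dll3, while in Dll4 the narrower peak was the higher.

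**Figure D3:**
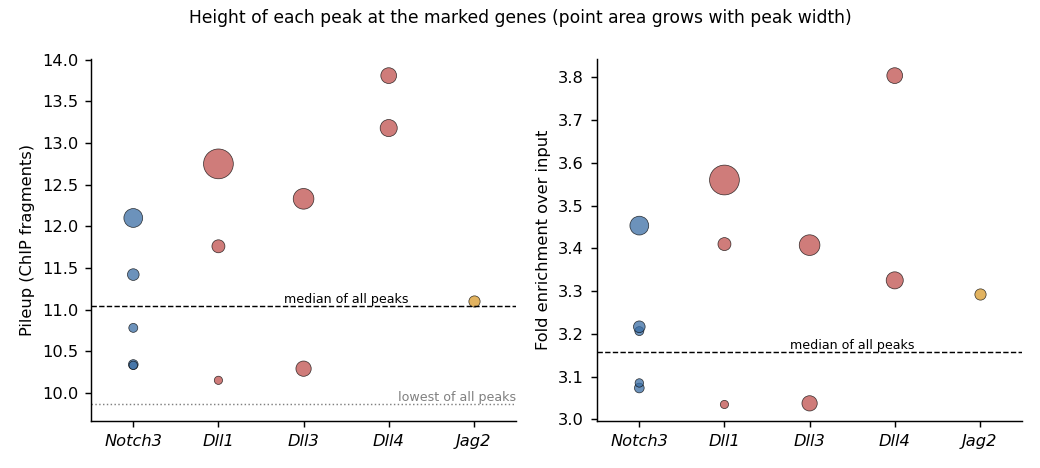
Pileup in ChIP fragments and fold enrichment over input of each of the 13 peaks, by gene, with point area growing with peak width; dashed lines give the median of all 19359 peaks and the dotted line the lowest pileup called. The points of Dll4 stand highest in pileup, and those of Notch3 spread across the median.

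When peaks with a q-value above 0.01 were set aside, peaks were left only at Dll1 and Dll4 (2 of 9 genes, against 5.90% of protein-coding genes), 1 at each, and both covered the start. The same 2 peaks were left when an enrichment of 3.5-fold or more was required (against 5.35% of protein-coding genes). The call of Notch3, Dll3 and Jag2 as marked therefore rested on peaks with q-values between 0.0116 and 0.0703.

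The covered starts had a middling content of CpG, the dinucleotide to which PRC2 recruitment is commonly tied. In the 300-base windows, of which those of Dll1, Dll3, Dll4, Notch2 and Jag2 are printed above, there were 15 CpG in Dll1, 11 in Dll3 and 17 in Dll4, close to the median of 13 over 17491 promoters of protein-coding genes. The uncovered starts ranged more widely, from 5 CpG in Notch4 through 22 in Jag1, 23 in Notch1 and 25 in Notch3 to 41 in Notch2 and 63 in Jag2. The window of Jag2 held more than that of 99.97% of promoters. Across all promoters, with starts as these windows place them, the share with the start under a peak was 2.17% in the quartile with the fewest CpG, 6.79% and 5.35% in the middle quartiles and 3.11% in the quartile with the most. The letters TGGGAA, the core bound by Rbpj, were searched on both strands and stood in none of the 9 windows (0 of 9), while 24.5% of promoters held them.

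**Figure D4:**
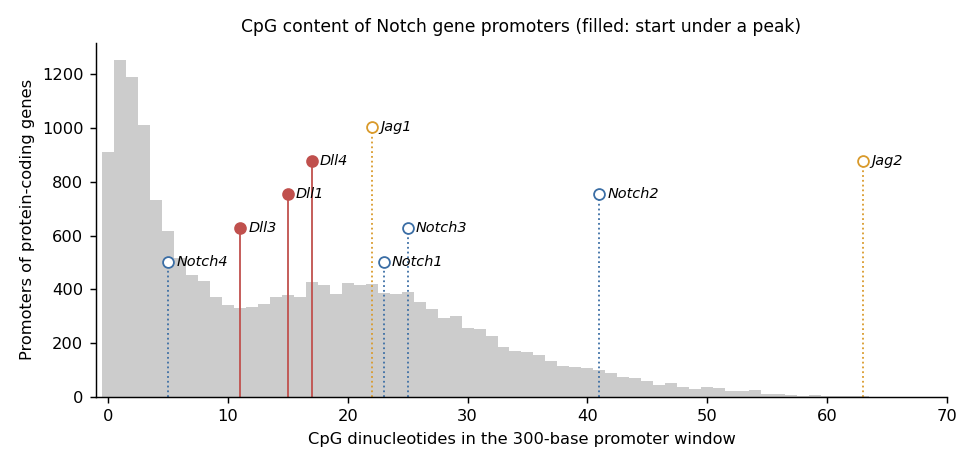
Histogram of CpG dinucleotides in the 300-base promoter windows of 17491 protein-coding genes, with the 9 members marked at heights that carry no value. Filled markers, whose start lies under a peak, stand at 11, 15 and 17 CpG, and open markers range from 5 to 63.

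The other genes of the pathway were listed by role. Of these 50 genes, 14 were marked (28.0%), against 20.7% of all protein-coding genes. The target genes held the largest number, with 5 of 10 marked. Hes5 had a peak of 12.7 kb that crossed its start (pileup 12.19) and 1 of 1.05 kb beyond its end, a summed length of 13.8 kb. Hes3 had a peak of 7.20 kb over its start (pileup 12.81) and Hes2 lay entirely under a peak of 6.12 kb (pileup 12.11), so that 3 of 10 targets had a covered start, against 4.56% of protein-coding genes. The q-values of the peaks over these starts were 0.0188 at Hes5, 0.00568 at Hes3 and 0.0122 at Hes2. With a q-value up to 0.01, 2 of 10 targets were left marked (5.90% of protein-coding genes), and only the start of Hes3 was left covered. Hey2, a target of the heart and vessels, had 3 peaks with a summed length of 8.91 kb and a free start, and Nrarp, a feedback inhibitor, had 1 peak of 3.07 kb over its 3′ end (pileup 12.02). Hes1, Hes6, Hes7, Hey1 and Heyl had no peak within 5 kb, and their nearest peaks lay 10.4 kb (Hes1) to 66.2 kb (Hes6) away.

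The remaining groups included the genes that carry the signal inside the cell. In the nuclear complex, 1 of 8 was marked, Snw1, through a peak of 340 bp that stood 2531 bp upstream with a q-value of 0.0776, and the nearest peak of Rbpj lay 145 kb away. Of the proteases that cleave the receptor, 1 of 10 was marked, the γ-secretase subunit Aph1a, by 2 peaks beyond its 3′ end. Among endocytosis and ubiquitin genes 3 of 12 were marked. Dtx1, a Deltex ubiquitin ligase, had 6 peaks with a summed length of 12.1 kb, Neurl1a had 3 inside the gene (3.13 kb), and Mib1 had 1 peak 3417 bp upstream with a q-value of 0.0679. Among glycosyltransferases 2 of 5 were marked, namely Lfng, a Fringe that alters ligand choice, by a peak of 602 bp upstream and Poglut1 by a peak of 1.61 kb upstream, whose pileup of 15.45 exceeded that of every member. Of 5 non-canonical ligands, Dlk2 had a peak of 7.62 kb upstream (pileup 12.79) and Dner had a peak of 2.65 kb past its end and 1 of 1.33 kb inside. When a peak over the gene body was required, 8 of the 50 genes were left (16%), a share near the 15.3% of all protein-coding genes, and without the peaks whose q-value exceeded 0.01 there were 6 (12% against 5.90%).

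**Figure D5:**
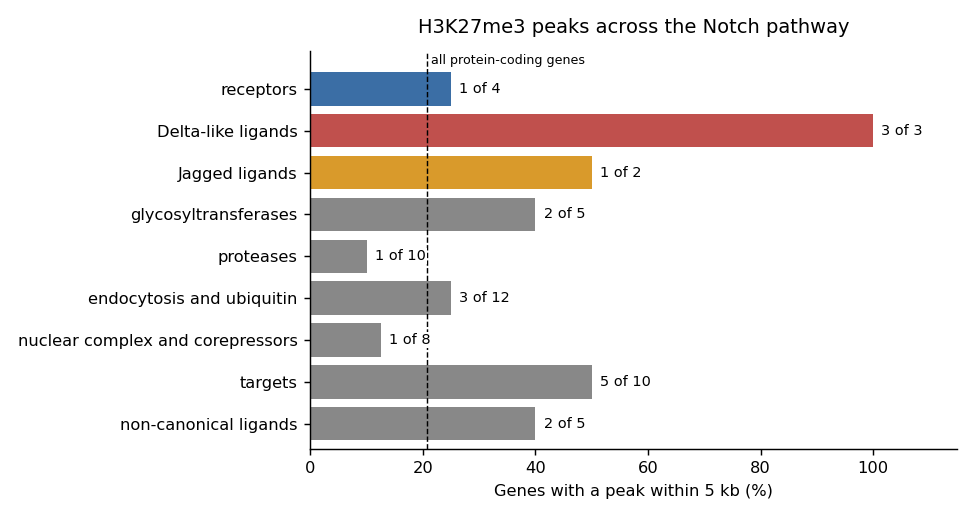
Percentage of genes with a peak within 5 kb in each group of Notch pathway genes, with counts beside the bars and a dashed line at the share of all protein-coding genes, 20.7%. The proteases and the nuclear complex stand left of the line and all other groups right of it. The Delta-like ligands (3 of 3) stand furthest right, followed by the targets (5 of 10) and the Jagged ligands (1 of 2).

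The coverage profile of Dll1, the member with the largest summed length of joined peaks, was set against that of 4669 other protein-coding genes with a peak within 20 kb of their start, in 80 bins of 500 bp. The closest were Slfn5 on chromosome 11, E030030I06Rik on chromosome 10 and Mtx2 on chromosome 2. Their mean differences in covered share per bin were 0.091, 0.142 and 0.166, against a median of 0.550 over all genes compared. Each likewise had a wide block on the upstream side of its start, which follows from the choice by likeness and is no separate result.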

How the data were processed

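H3K27me3 ChIP and input DNA of wild-type rib chondrocytes were sequenced, 1 library each. Per the submitters' processing notes, CASAVA 1.8.4, Bowtie2, MACS2 and mm10 (GRCm38) were used. Per the file headers, duplicates were removed and MACS 2.1.0.20140616 called broad peaks of ChIP against input, with a q-value cutoff of 0.05 and the larger library scaled to the smaller. The authors deposited per peak the pileup (a coverage signal), the fold enrichment (a ratio to the input background after adding 1 to both) and −log10 q-values averaged over the peak. These averages were at or under 0.05 in 60.8% of peaks. Why the other peaks exceed the stated cutoff was not tested. A second deposited table joins peaks to Ensembl genes within 5 kb, by a tool not given in the sources used here. All 19359 peaks had equal values in both tables.

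Gene starts, ends and distances were taken from the RefSeq gene table and strands from the RefSeq promoter table, both of GRCm38.p6 (all 9 members matched), or, for genes outside the promoter table, from the deposited records. The distance to the record of Fam120b and the side of peaks in the wider pathway are those of the deposited annotation. The promoter windows have starts of their own, which differ by 6 bp at Notch3, 9 bp at Notch4 and 317 bp at Jag2. Of 4987 symbols in the annotation, 4928 (98.8%) matched by symbol or synonym. Shares of covered starts are over the 17491 genes in the promoter table. Summed length counts whole peaks. Python 3.11.15 and pandas 2.3.3 were used, and interval counting was tested on simulated data. The members and lists were chosen with earlier results of these data known. The text names all members, the marked genes of the wider pathway list, the genes that share member peaks and the 3 genes whose profile is most like that of Dll1.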

Additional observations from a re-analysis of the deposited data

How the results depend on the processing

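Of 38 values recomputed in the same unit, 25 stayed within 1.5 times the reported one, 13 moved beyond it and 0 changed direction. Counts of genes have no direction to change. The stricter peak filters given below left 0 receptor peaks, so the ligand excess could not turn there. The removal of the widest ligand peak was chosen after seeing the data. No paired analysis was possible because ChIP and input had 1 library each. The stricter peak filters were a q-value up to 0.01 and an enrichment of 3.5-fold or more. Under each of them marked members went from 5 to 2, since both remove peaks (against 5.90% and 5.35% of protein-coding genes). The ligands exceeded the receptors by 3 peaks, and by 6 with a reach of 20 kb. Their excess in summed length, 35.0 kb, became 23.2 kb under each stricter filter, 6.66 kb inside gene bodies, 18.9 kb with a reach of 20 kb and 16.4 kb without the widest ligand peak. As a share of gene length, which is in another unit, the excess was 15.5 percentage points. Their excess in pileup, 0.852 fragments, became 1.71 for the highest peaks, and it could not be given at the stricter filters, which left 0 receptor peaks. Marked genes of the wider pathway moved from 14 to 6 under each stricter filter (12%, against 5.90% of protein-coding genes by q-value and 5.35% by enrichment), 8 with overlap of the gene body (16% against 15.3%) and 22 within 20 kb (44.0% against 32.9%). With a q-value up to 0.05 or a width of 1 kb or more, 5 members were marked as before (against 16.4% and 17.0% of protein-coding genes). The lowest pileup called was 9.86 fragments. Weaker marks were not called, and what sets this floor was not tested.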
